A study of Mus musculus with 9 samples.

Results

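The genes described are 10 hypoxia-inducible genes that lie outside glycolysis: Hif1a, Vegfa, Bnip3, Bnip3l, Egln1, Egln3, Ankrd37, Ndrg1, P4ha1 and Ddit4. They were chosen by symbol, with earlier results of these data known, and all 10 were found among the 23366 gene rows of the count table. RNA from mouse embryonic stem cells (strain 129 SvJae F1, passage 21) was sequenced. The cells were kept in a serum-containing medium with LIF (leukaemia inhibitory factor), which keeps them undifferentiated. Both groups compared here shared this strain, passage and medium. The comparison is between 3 wild-type libraries and 3 libraries of cells in which Sirt6 was knocked out. The labels do not say how the knockout was made or how many clones it stands for. The series also lists 3 samples of wild-type cells deprived of glucose, which were not analysed here. The labels do not state that replicates were separate cultures, so the spread behind each p-value could be technical.

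Cells sense oxygen through prolyl hydroxylases of the EGLN family. When oxygen is present these enzymes mark the alpha subunit of hypoxia-inducible factor (HIF), encoded by Hif1a or Epas1, for destruction by the VHL ubiquitin ligase. When oxygen is scarce the alpha subunit persists, pairs with ARNT, binds DNA at hypoxia response elements with the core ACGTG or GCGTG and raises transcription of its targets. Because the control acts mainly on the HIF protein, the Hif1a transcript need not change for the pathway to be active. SIRT6, a histone deacetylase, is known from earlier work as a repressor that acts with HIF1A at glycolytic genes. The comparison asks how the targets outside glycolysis, and the sensing machinery, stood when Sirt6 was missing.

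Total counts ranged from 20107037 to 29267115 per library. Sirt6 itself was at 13.5 ± 0.690 CPM in wild type and 0.308 ± 0.0664 CPM in the knockout (SD, n = 3). CPM are counts scaled to library size with trimmed-mean (TMM) factors. The 10 stem cell markers examined were all expressed, with summed levels of 6091 to 6719 CPM in wild type and 6379 to 8033 CPM in the knockout. Of these, 3 rose (Tdgf1, Dppa5a and Sox2), 5 fell and 2 did not pass the test; their median log2 fold change was -0.22. The falls ranged from -0.97 for Klf4 to -0.32 for Nanog and included Pou5f1 at -0.46. Markers of other cell types moved with the groups as well. Of 10 fibroblast markers, 6 were testable and all 6 rose, from a sum of 4.35 to 5.06 CPM up to 32.2 to 40.2 CPM, with Lum at 0 counts in every library. Of 10 endoderm markers, 8 were testable and all 8 fell, from a sum of 304 to 337 CPM to one of 50.3 to 84.8 CPM. Single genes made up much of these sums, with Tagln at a mean of 21.7 CPM in the knockout and Lama1 at 214 CPM in wild type. By the test given below, 27.9% of all genes tested were higher in the knockout and 27.8% lower. The part of these markers in the results below was not tested. In RNA from whole cultures, fewer cells of a type and less RNA per cell cannot be told apart. The knockout libraries also differed among themselves by transcript length. Replicate 3 against replicate 1 had a median log2 difference of 0.36 for genes with under 2 kb of exon and -0.26 for genes with 4 kb or more.

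The promoters of the members are shown first because the members were listed as hypoxia-inducible genes. Control of the members by HIF was not tested. RefSeq windows (build GRCm38.p6) of the 250 bases before the gene start were available for 8 members, all except Bnip3l and Ndrg1. ACGTG and GCGTG were searched on both strands, and for Vegfa, which has 2 windows, the first listed was used. At least 1 match was found in 7 of the 8 windows, and at least 1 ACGTG in the same 7. Among 10841 tested genes with a window, 55.9% held a match to either core and 21.7% held ACGTG. Among the 5442 of these with a GC content of at least 60%, the shares were 66.6% and 24.2%. The median GC content of the members' windows was 68.6%. The palindrome CACGTG, the E-box core that other factors bind, contains ACGTG on both strands and so counts as 2 matches; it was present in the windows of Bnip3 and Hif1a and in 8.38% of tested genes. A match is a run of letters and not a measured binding site. The members were listed as hypoxia-inducible genes, so their share of matches was not independent of that choice. Its difference from the other genes was not tested. The windows of the members with the 3 largest log2 fold changes are given here. Those of Hif1a, whose level was not called different, and Vegfa, which fell, are added. All windows read 5′ to 3′ on the gene's strand, up to the base before the start, with matches in capitals.
Bnip3, chr7:138909507-138909756, minus strand: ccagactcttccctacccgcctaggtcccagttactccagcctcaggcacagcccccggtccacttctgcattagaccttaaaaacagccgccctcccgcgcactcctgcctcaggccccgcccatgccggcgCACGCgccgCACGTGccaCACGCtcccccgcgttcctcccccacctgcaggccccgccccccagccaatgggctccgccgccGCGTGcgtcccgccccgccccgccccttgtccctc
Ankrd37, chr8:45999851-46000100, minus strand: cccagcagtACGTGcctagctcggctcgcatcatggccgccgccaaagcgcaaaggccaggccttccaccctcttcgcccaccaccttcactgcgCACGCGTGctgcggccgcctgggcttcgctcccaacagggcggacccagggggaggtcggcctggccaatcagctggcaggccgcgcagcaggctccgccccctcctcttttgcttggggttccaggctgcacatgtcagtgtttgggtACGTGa
Ddit4, chr10:59951771-59952020, minus strand: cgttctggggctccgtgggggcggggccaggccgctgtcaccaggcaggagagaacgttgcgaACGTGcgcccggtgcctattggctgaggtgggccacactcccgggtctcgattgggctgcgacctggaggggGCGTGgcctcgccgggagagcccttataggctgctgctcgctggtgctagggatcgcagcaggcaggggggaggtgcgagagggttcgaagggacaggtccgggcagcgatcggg
Hif1a, chr12:73907617-73907866, plus strand: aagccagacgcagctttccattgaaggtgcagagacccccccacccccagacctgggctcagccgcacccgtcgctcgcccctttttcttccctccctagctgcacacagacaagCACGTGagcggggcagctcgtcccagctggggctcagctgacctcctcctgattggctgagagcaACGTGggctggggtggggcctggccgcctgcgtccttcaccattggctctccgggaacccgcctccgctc
Vegfa, chr17:46032378-46032627, minus strand: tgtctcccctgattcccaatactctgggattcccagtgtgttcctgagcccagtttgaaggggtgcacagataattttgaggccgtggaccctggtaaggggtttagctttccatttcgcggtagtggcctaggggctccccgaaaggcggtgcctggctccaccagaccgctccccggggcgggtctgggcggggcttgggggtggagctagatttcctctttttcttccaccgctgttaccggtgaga

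The Bnip3 window held 5 matches. Among them the palindrome gave ACGTG at positions -107 to -103 on the gene's strand and -108 to -104 on the other, counting back from -1 at the base before the start. The Ankrd37 window held 4 matches, of which ACGTG lay at -6 to -2 and at -241 to -237. The Ddit4 window had ACGTG at -187 to -183 and GCGTG at -115 to -111. The Hif1a window had 3 matches. The first Vegfa window had 0. The second Vegfa window (chr17:46025164-46025413) lies downstream of the first on the gene's strand, inside the gene as counted from the first start. It had GCGTG at -218 to -214 and ACGTG at -211 to -207, which are not counted above and are not read as promoter elements. Bases outside the windows were not searched, so 0 matches does not speak to elements farther away.

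Of the 10 members, 8 rose in the knockout, 1 fell and 1 did not pass the test (edgeR's quasi-likelihood test, Benjamini-Hochberg adjusted p under 0.05 over all 14988 genes tested). The background was high: 55.7% of all genes tested were called, 27.9% as higher and 27.8% as lower. The median log2 fold change of the members was 0.87, against 0.01 over all genes tested. The groups did not overlap for 9 members, 8 above and 1 below wild type, where 63.2% of all genes tested did not overlap, 31.2% wholly above and 32% wholly below. All 10 members passed the filter on low counts. Because the members were chosen with earlier results of these data known, their counts are not independent of the data.

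**Figure D1:**
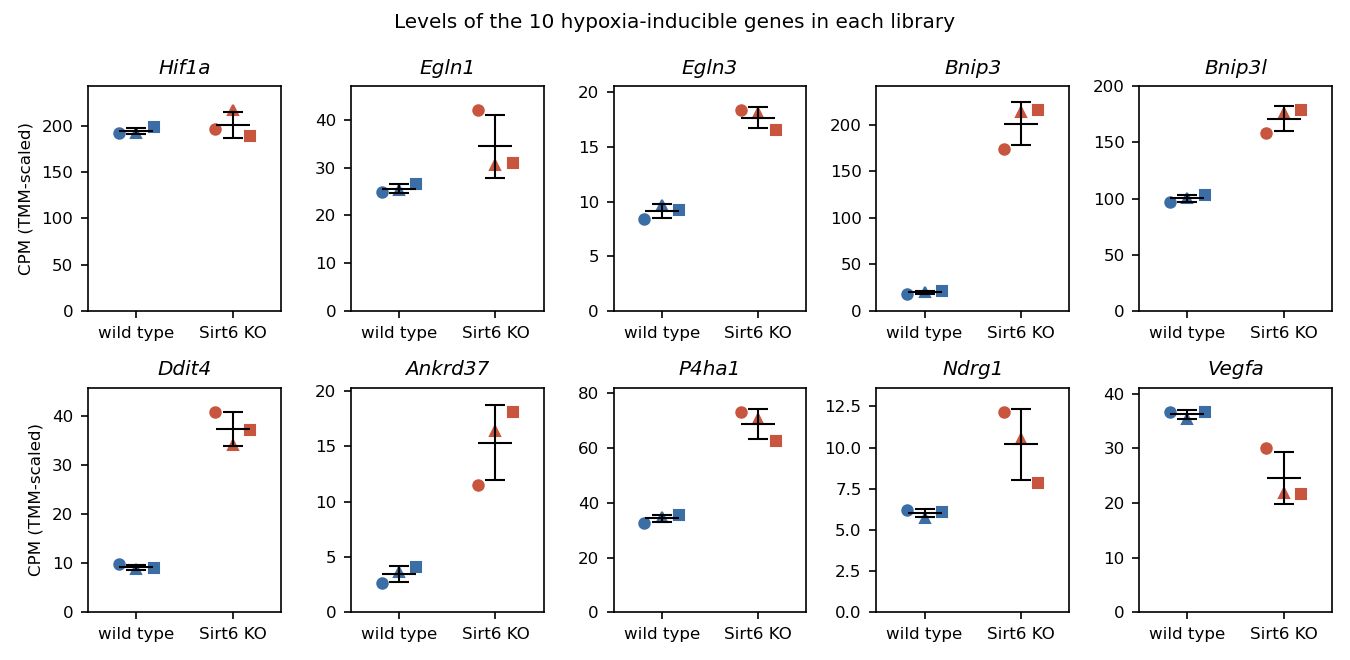
Levels of the 10 members in each library, in TMM-scaled CPM on axes that start at 0. Circles, triangles and squares are replicates 1, 2 and 3, and bars show the mean ± SD of 3 libraries. The groups overlap for Hif1a, the knockout lies below wild type for Vegfa, and it lies above for the other 8 genes.

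The regulators were followed first. Hif1a, the oxygen-regulated subunit, was at 193, 192 and 199 CPM in wild-type replicates 1 to 3 and at 196, 217 and 189 CPM in knockout replicates 1 to 3. The groups overlapped, with knockout replicate 3 the lowest and replicate 2 the highest of the 6 libraries. The log2 fold change was 0.05 ± 0.09 (SE, adjusted p = 0.70, edgeR), with a 95% interval of -0.16 to 0.25. In the annotation Hif1a shares 330 bases of exon with the antisense gene Gm15283 and 148 with Gm49321, a protein-coding gene on the same strand. No source used here says if reads were counted by strand, and counts in the shared bases are uncertain.

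Egln3 and Egln1, prolyl hydroxylase genes that are HIF targets as well as its brakes, rose. Egln3 was at 8.42, 9.67 and 9.23 CPM in wild type and 18.4, 18.1 and 16.6 CPM in the knockout. Every knockout library lay well above every wild-type library. Egln3 rose 1.94-fold, a log2 fold change of 0.96 ± 0.11 (adjusted p = 3.37e-05, edgeR). Egln1, which encodes PHD2, the main HIF hydroxylase in most cells, was at 24.9, 25.4 and 26.6 CPM in wild type and 42.1, 30.5 and 30.9 CPM in the knockout. The groups did not overlap, but knockout replicate 1 stood apart from the other 2. The log2 fold change of Egln1 was 0.43 ± 0.13 (adjusted p = 0.0163, edgeR) and 0.27 without knockout replicate 1 (adjusted p = 0.0118). The call ended without wild-type replicate 1 (adjusted p = 0.0548) or 2 (adjusted p = 0.0593), while the log2 fold change was 0.42 in each.

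Bnip3 showed the largest rise among the members. It encodes a mitochondrial outer membrane protein that recruits autophagosomes and can promote cell death. Bnip3 was at 17.9, 20.3 and 21.7 CPM in wild type and 174, 214 and 216 CPM in the knockout. The lowest knockout library was several times the highest wild-type library. The rise was 10.1-fold, a log2 fold change of 3.33 ± 0.13 (adjusted p = 5.15e-08, edgeR), and 1.51% of all genes tested had a larger log2 fold change. Bnip3l, its paralogue, known as NIX and needed to clear mitochondria from maturing red cells, was at 97.2, 100.4 and 102.8 CPM in wild type and 159, 176 and 179 CPM in the knockout. The groups were well apart, at a log2 fold change of 0.77 ± 0.09 (1.71-fold, adjusted p = 4.49e-05, edgeR). The annotation lists a processed pseudogene of Bnip3l, Bnip3l-ps, and an antisense gene, Gm45507, that shares 504 bases of exon with Bnip3; counts shared with either are uncertain.

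Ddit4 and Ankrd37 had the next largest log2 fold changes. Ddit4 encodes REDD1, which restrains the growth kinase mTORC1 in hypoxia and other stress. Its levels were 9.77, 8.75 and 9.08 CPM in wild type and 40.8, 33.9 and 37.1 CPM in the knockout. All knockout libraries lay far above wild type, and the rise was 4.05-fold (log2 2.02 ± 0.11, adjusted p = 2.56e-07, edgeR). Ankrd37 encodes a small ankyrin-repeat protein and is widely used as a HIF marker. It was at 2.68, 3.68 and 4.09 CPM in wild type and 11.5, 16.3 and 18.1 CPM in the knockout. Its groups did not overlap, though knockout replicate 1 was the lowest of its group, and its fold was 4.37 (log2 2.13 ± 0.20, adjusted p = 8.79e-06, edgeR). Ankrd37 lies opposite Ufsp2 and Lrp2bp and shares 57 and 349 bases of exon with them. Ufsp2 rose 1.70-fold, and Lrp2bp had 0 to 7 counts per library.

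P4ha1 and Ndrg1 rose by smaller steps. P4ha1 encodes the catalytic subunit of collagen prolyl 4-hydroxylase, which is needed for a stable collagen triple helix. It was at 32.7, 34.7 and 35.4 CPM in wild type and 73.2, 70.5 and 62.4 CPM in the knockout. The groups were wide apart, at a log2 fold change of 1.0 ± 0.10 (2.01-fold, adjusted p = 1.13e-05, edgeR). Ndrg1, a stress-responsive gene linked to differentiation and lipid handling, was at 6.19, 5.73 and 6.10 CPM in wild type and 12.2, 10.5 and 7.86 CPM in the knockout. Knockout replicate 3 lay nearest to wild type but did not overlap it. The log2 fold change of Ndrg1 was 0.77 ± 0.16 (1.71-fold, adjusted p = 0.00194, edgeR). Its exons share 419 and 137 bases with Gm17035 and Gm2895 on the opposite strand.

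Vegfa went the other way. It encodes the growth factor that drives blood vessel growth and is among the best known HIF targets. Vegfa was at 36.7, 35.3 and 36.7 CPM in wild type and 30.0, 21.9 and 21.7 CPM in the knockout. All knockout libraries lay below all wild-type libraries, with replicate 1 the closest. Vegfa fell 1.47-fold, a log2 fold change of -0.56 ± 0.13 (adjusted p = 0.00394, edgeR). Over the 15 alternative settings, libraries left out included, its log2 fold change ran from -0.73 to -0.43 and it was called lower in each. Endoderm markers fell in the same libraries, as given above, and their part in the value of Vegfa was not tested.

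**Figure D2:**
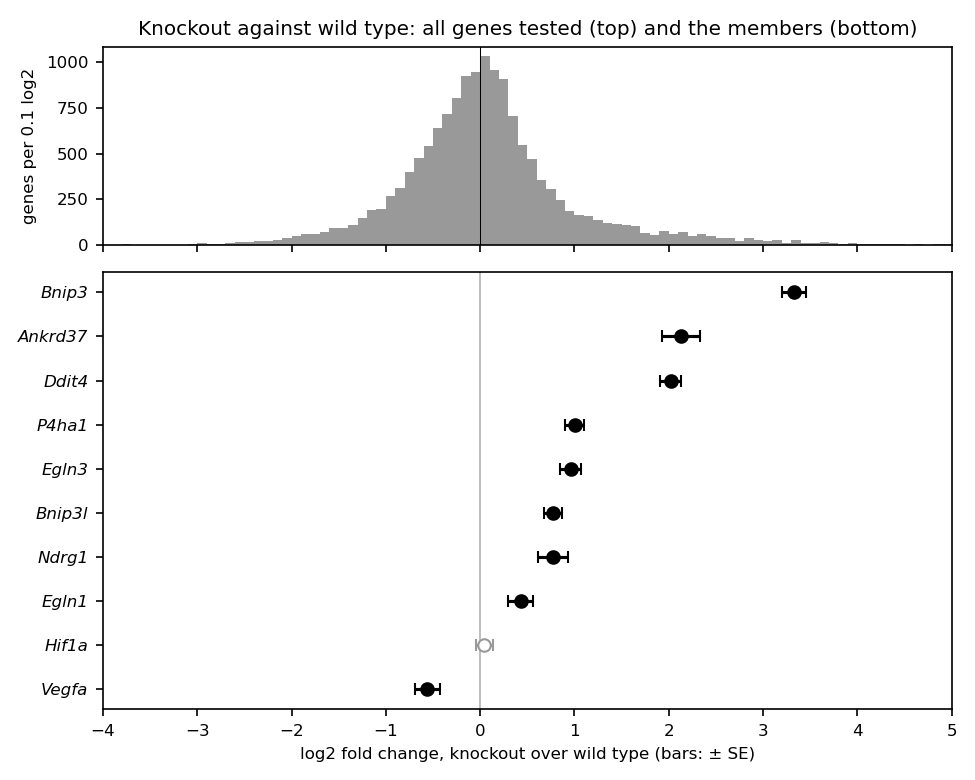
Log2 fold changes of knockout over wild type. The top panel counts all 14988 genes tested in steps of 0.1, with 25 genes below -4 and 49 above 5 outside the axis; in the bottom panel points are the members, bars are ± SE, and the open point (Hif1a) did not pass the test. The members run from -0.56 for Vegfa to 3.33 for Bnip3.

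In the authors' deposited table, the same 9 members passed an adjusted p of 0.05 with the same signs. The share of all 19025 genes of that deposited table that passed is not given here, so the 9 cannot be weighed against it. That deposited table gave log2 fold changes of 3.29 for Bnip3, 2.07 for Ankrd37, 2.0 for Ddit4 and -0.55 for Vegfa. For Hif1a, the authors' deposited table gave 0.05 with an adjusted p of 0.727. These values rest on the same 6 libraries and are not a separate experiment.

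The order of the members' levels changed between the groups. Levels per kb of annotated exon were compared, a scale that allows for the length of each gene (union of exons in GENCODE M21, build GRCm38). The knockout libraries differed among themselves by transcript length, so the order of knockout levels that lie close together is uncertain for genes of unlike length. In wild type Hif1a was highest at 33 ± 0.594 CPM per kb, followed by Bnip3l at 25.9 ± 0.723 CPM per kb. Bnip3, Vegfa and P4ha1 came next at 8.83 ± 0.862, 8.45 ± 0.185 and 8.33 ± 0.335 CPM per kb and did not differ beyond their spread. Egln1 stood at 7.13 and Ddit4 at 5.24 CPM per kb, and Ndrg1 was lowest at 0.911 ± 0.0367 CPM per kb. In the knockout Bnip3 was highest at 88.9 ± 10.3 CPM per kb, above Bnip3l at 44.4 ± 2.83 and Hif1a at 34.1 ± 2.44 CPM per kb. Ddit4, at 21.3 ± 1.96 CPM per kb, stood above P4ha1 at 16.7 ± 1.36 CPM per kb. Ankrd37 (9.96 ± 2.22 CPM per kb) and Egln1 (9.60 ± 1.83 CPM per kb) did not differ beyond their spread, nor did Egln3 (6.64 ± 0.362) and Vegfa (5.72 ± 1.11 CPM per kb). Ndrg1 remained lowest at 1.54 ± 0.331 CPM per kb.

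The members also varied within the knockout group. From knockout replicate 1 to replicate 3 the log2 level differed by 0.65 for Ankrd37, which has 1.54 kb of exon, and by -0.63 for Ndrg1, which has 6.60 kb. The same difference was 0.31 for Bnip3 (2.27 kb), -0.47 for Vegfa (4.29 kb), -0.05 for Hif1a (5.90 kb) and -0.14 for Ddit4 (1.76 kb). Across 14842 genes this difference had a Spearman correlation of -0.445 with log2 exon length; genes of 1 pair of libraries share those libraries and are not independent. After removal of each library's trend on exon length and GC content, an alternative added after the data were seen, 8 members were called higher and 1 lower. The background of calls grew in that setting. Of all 14842 genes tested there, 4919 were called higher and 4542 lower, against 4182 and 4163 of 14988 in the main fit.

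Ratios of related genes within a library do not depend on how libraries are scaled. They can still carry differences between libraries by transcript length, where the 2 genes differ in length. Among 6 pairs compared, the groups did not overlap for 4, each at the smallest p that 3 against 3 can give, and no pair could pass 0.05. The count ratio of Bnip3 to Bnip3l was 0.184, 0.203 and 0.212 in wild type and 1.10, 1.21 and 1.21 in the knockout. Every wild-type library thus held fewer Bnip3 than Bnip3l counts and every knockout library more. The log2 ratio differed by 2.56, or 5.89-fold (two-sided exact permutation p = 0.10, adjusted p = 0.15 over 6 pairs). The ratio of Egln1 to Egln3 was 2.96, 2.63 and 2.88 in wild type and 2.29, 1.69 and 1.86 in the knockout, a log2 difference of -0.54 (exact permutation p = 0.10, adjusted p = 0.15). Egln1 gained on Egln2, the family member not induced by hypoxia, from count ratios of 0.433, 0.408 and 0.414 to 0.629, 0.575 and 0.537 (log2 difference 0.47, exact permutation p = 0.10, adjusted p = 0.15).

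The ratio of Hif1a to its partner Arnt was 2.81, 2.84 and 3.40 in wild type and 5.2, 6.52 and 6.14 in the knockout. The groups were apart by 0.98 on the log2 scale (exact permutation p = 0.10, adjusted p = 0.15), and the level of Arnt fell while that of Hif1a was not called. P4ha1 and P4ha2, alternative catalytic subunits of one enzyme, kept overlapping ratios, with log2 means of 2.09 ± 0.0988 and 2.12 ± 0.106 in wild type and knockout (SD, n = 3, exact permutation p = 0.70, adjusted p = 0.70). Vegfa and Vegfb also overlapped, at 3.17, 3.35 and 3.43 in wild type and 5.92, 3.59 and 3.12 in the knockout, where replicate 1 was far above the others (exact permutation p = 0.50, adjusted p = 0.60). Vegfa has 4.29 kb of exon and Vegfb 1.6 kb, and the part of transcript length in this ratio was not tested.

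**Figure D3:**
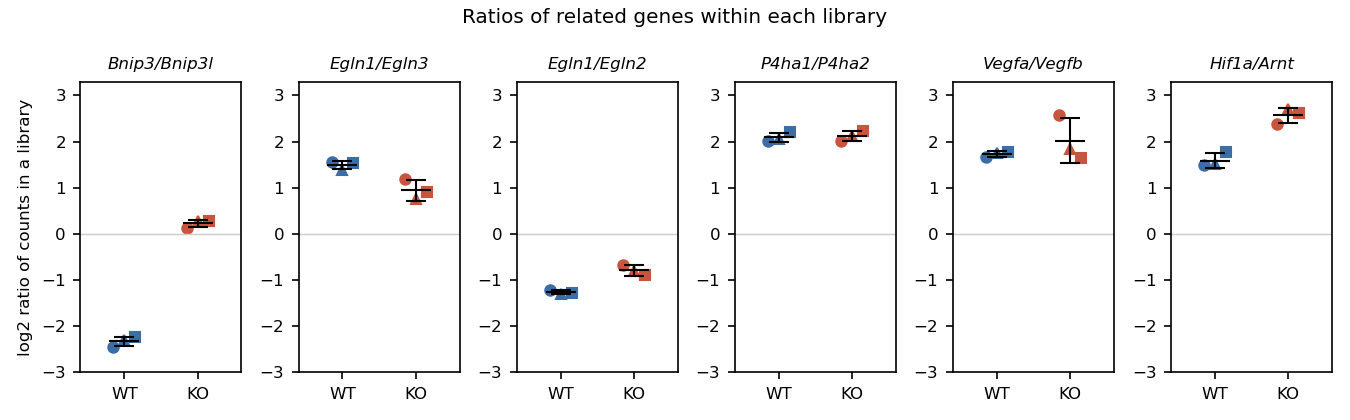
Log2 ratios of counts of 6 pairs of related genes in each library; circles, triangles and squares are replicates 1, 2 and 3, and bars are mean ± SD. Bnip3/Bnip3l moves from -2.33 to 0.23 and Hif1a/Arnt from 1.59 to 2.57, while P4ha1/P4ha2 and Vegfa/Vegfb overlap between the groups.

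Among the 14 further genes of oxygen sensing, 1 rose, 6 fell and 7 did not pass the test. Over all genes tested, 27.9% were called higher and 27.8% lower. The median log2 fold change of the 14 was -0.27. Epas1, which encodes the HIF-2 alpha subunit, showed the largest change, from 81.2 ± 4.76 to 11.2 ± 1.99 CPM (log2 -2.85 ± 0.13, adjusted p = 1.22e-07, edgeR). Arnt, the shared beta subunit, fell from 64.9 to 33.9 CPM (log2 -0.93). Its paralogue Arnt2 rose by 0.55. The coactivator genes Ep300 and Crebbp fell by 1.34 and 1.39 on the log2 scale. Cited2, which competes with HIF for these coactivators, fell by 0.92 and Hif1an, which encodes the asparagine hydroxylase that blocks coactivator binding, fell by 1.03. For Egln2 (log2 -0.05 ± 0.11) and Vhl (0.02 ± 0.10) the test was not passed, and the ligase subunit genes Cul2, Rbx1 and Tceb2 lay between -0.04 and 0.05. Rbx1 and Tceb2 spread widely over knockout replicates 1 to 3, at 84.4, 122 and 160 CPM and at 95.1, 134 and 180 CPM. Their SEs were 0.18 and 0.19, so a moderate change in either is not excluded. Tceb1 was at -0.49 (adjusted p = 0.0594) and passed in 6 of the 15 alternatives. The endoderm markers given above fell in the same libraries as Epas1, and their part in its value was not tested.

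Of 42 further hypoxia-inducible genes outside glycolysis, 41 were tested, and 22 rose, 7 fell and 12 did not pass. Of those tested, 53.7% were higher and 17.1% lower, against 27.9% and 27.8% of all genes tested. The median log2 fold change of the 41 was 0.43. This list and the other lists here were chosen with earlier results of these data known, so their shares are not independent of the data. Car12, a membrane carbonic anhydrase, rose from 0.752 ± 0.134 to 6.19 ± 0.983 CPM (8.19-fold), and the cyclin-like gene Ccng2 from 10.2 ± 1.42 to 36.1 ± 3.60 CPM (3.54-fold). Igfbp3, which binds insulin-like growth factors, rose 2.90-fold, and the lysyl hydroxylase gene Plod2 rose 2.57-fold. Zfp395 fell most, from 28.5 ± 3.69 to 5.81 ± 1.40 CPM, and Gys1 (glycogen synthase), Bhlhe40 and Cited2 fell by 0.73, 0.49 and 0.92 on the log2 scale. The canonical target Car9, chosen after its values were seen, was near 1 CPM in both groups, at 1.09 ± 0.149 in wild type and 0.866 ± 0.177 CPM in the knockout, and did not pass. With total counts as scaling, 4 rather than 7 of these genes were lower, as also without wild-type replicate 1 or 2.

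In the 20 hypoxia-inducible genes of glucose uptake and glycolysis, given for comparison, 11 rose, 1 fell and 8 did not pass. The higher and lower shares were 55% and 5%, against 27.9% and 27.8% of all genes tested. The median log2 fold change of the 20 was 0.65. The enolase gene Eno2, the aldolase gene Aldoc, the lactate exporter gene Slc16a3 and the phosphofructokinase gene Pfkp rose by 2.15, 2.07, 1.71 and 1.6 on the log2 scale, and the hexokinase gene Hk2 fell by 0.70. Among those not passing, Eno1, chosen after its values were seen, had only 0.970 CPM in wild type and 1.35 CPM in the knockout. Its row thus held few counts and says little of a change. The median of the 10 members was 0.87 on the log2 scale, and no test of its difference from 0.65 was made.

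**Figure D4:**
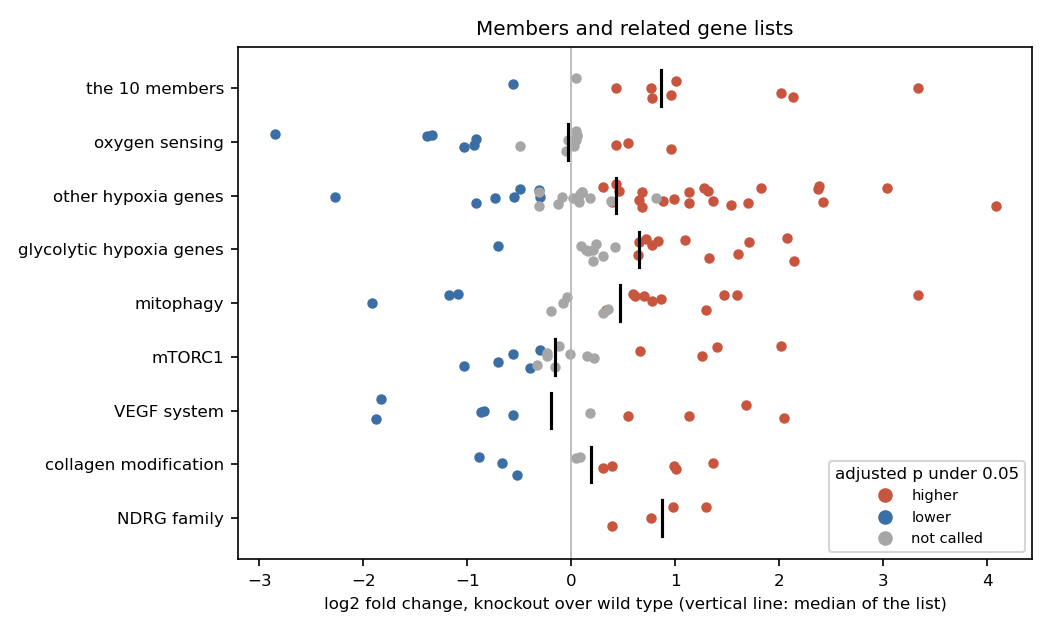
Log2 fold changes of all tested genes of the 10 members and of 8 related lists; each point is a gene, coloured by its call, and the vertical line is the list's median. Lists that hold members include them here. The NDRG family lies wholly above 0, and oxygen sensing, mTORC1 and the VEGF system have medians below 0.

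The partners of the members were examined by role. The lists overlap, and genes shared between lists, such as Cited2, Flt1 and P4hb, are counted in each. Around Bnip3 and Bnip3l, 16 other mitophagy genes gave 8 higher, 3 lower and 5 not passing. Of all genes tested, 27.9% were higher and 27.8% lower. Pink1, the kinase that flags damaged mitochondria, rose from 10.1 ± 1.35 to 30.3 ± 5.77 CPM (log2 1.59), while Park2, the ubiquitin ligase it recruits, fell from 5.05 ± 0.964 to 1.32 ± 0.151 CPM (log2 -1.91). The autophagosome protein gene Gabarapl1 and the receptor genes Optn and Sqstm1 rose by 1.30, 1.47 and 0.86. Bcl2l1, whose product BCL-XL binds BNIP3, fell by 1.09 on the log2 scale. The other mitophagy receptor genes Fundc1, Bcl2l13 and Fkbp8 were at 0.35, -0.08 and -0.04 and did not pass.

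Around Ddit4, 16 other genes of the mTORC1 pathway gave 3 higher, 5 lower and 8 not passing. The shares over all genes tested were 27.9% higher and 27.8% lower. Sesn1 and Sesn3, which encode sestrins that restrain mTORC1, rose by 1.40 and 1.25, and the Ddit4 paralogue Ddit4l by 0.66. Sesn2 was at -0.40 (adjusted p = 0.0147), a call lost with total counts and without each of 3 single libraries (wild-type replicates 1 and 2 and knockout replicate 2). Tsc2, through which REDD1 acts, fell by 0.71, Rptor, the scaffold of mTORC1, by 1.03, and the inhibitor gene Deptor by 0.56. Mtor itself (-0.24) did not pass. The count of lower genes, 5, was 8 with the replicate number as a block, and also 8 after removal of the trend on length and GC. It was 3 with total counts and without wild-type replicate 1 or knockout replicate 2.

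Around Vegfa, 9 other genes of the VEGF system gave 4 higher, 4 lower and 1 not passing. Higher and lower genes made up 27.9% and 27.8% of all genes tested. The ligand genes Vegfc and Vegfb fell from 22 ± 0.460 to 6 ± 0.299 CPM (log2 -1.87) and from 10.9 ± 0.565 to 6.04 ± 0.946 CPM (log2 -0.87). The co-receptor gene Nrp2 fell by 1.83 on the log2 scale. The receptor genes Kdr and Flt1, chosen after their values were seen, are counted among those higher but had group means below 1 CPM, at 0.290 and 0.921 CPM for Kdr and 0.330 and 0.727 CPM for Flt1 in wild type and knockout. The groups overlapped for Flt1. Flt4 was at 0.55 (adjusted p = 0.0406), or 0.26 and not called without knockout replicate 1 (adjusted p = 0.118), and its call was also lost without any single wild-type replicate and with limma-voom. The rise in placental growth factor, Pgf, also chosen after its values were seen, started from 0.340 CPM and reached 1.41 CPM. The count of higher genes in the whole list of 10, which was 4, became 2 without knockout replicate 1 or wild-type replicate 1 or 3. It was 1 where a mean of at least 1 CPM was required.

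Around P4ha1, 9 other testable genes of collagen modification gave 4 higher, 3 lower and 2 not passing. Over all genes tested the higher and lower shares were 27.9% and 27.8%. All 4 of the higher genes (P4ha2, Plod1, Plod2 and Loxl2) are also counted among the further hypoxia-inducible genes above. P4ha2 rose from 8.05 ± 0.342 to 15.9 ± 2.41 CPM (log2 0.98) and Plod1 rose by 0.39. Loxl2 was at 0.30 (adjusted p = 0.0349), or 0.20 without knockout replicate 1, and its call was lost without any single wild-type replicate or knockout replicate 2. The shared subunit P4hb was at 0.08 and did not pass. The collagen chaperone gene Serpinh1 and the genes Crtap and Plod3 fell by 0.89, 0.66 and 0.52 on the log2 scale. Fibroblast markers rose in the same libraries, as given above; of the fibrillar collagens, Col1a1 reached 2.11 CPM and Col3a1 0.123 CPM in the knockout. In the NDRG family all 4 genes rose, with Ndrg2 at 1.30, Ndrg4 at 0.98, Ndrg1 at 0.77 and Ndrg3 at 0.39 on the log2 scale, and all 4 were called higher with each of the scalings tried.

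The genes most like Bnip3 across the 6 libraries, by root mean square distance of centred log2 CPM among 10455 genes with at least 5 CPM on average, were Mageb16, Aurkc and Tspan7, at distances of 0.070, 0.11 and 0.11. Mageb16 went from 5.2 ± 0.847 to 53.8 ± 8.77 CPM, Aurkc, an aurora kinase of germ cells, from 1.35 to 15.5 CPM and Tspan7 from 0.942 to 13.9 CPM. The genes most like Ddit4 were the enolase gene Eno2, Arhgef28 and the sorbitol dehydrogenase gene Sord, at 0.042, 0.066 and 0.069. Eno2 went from 2.26 ± 0.274 to 10.0 ± 1.07 CPM. With 6 libraries in 2 groups, likeness reflects mostly the size of the group difference.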

How the data were processed

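The deposited count table holds whole-number counts per gene symbol, with no normalization by the authors. TopHat2 2.0.10, HTSeq 0.6.1, DESeq2 and build mm9 are named in the submitters' processing notes, without roles. Annotation and strand setting: not known from the sources used here. Per the file headers, the authors' deposited comparison table gives a mean normalized signal, a log2 fold change, its standard error and a Wald statistic (scores), and p-values before and after adjustment.

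Columns were matched to samples by name. Counts were tested by the quasi-likelihood method of edgeR 4.0.16 (R 4.3.3), two-sided, with TMM factors and the filterByExpr filter, which left 14988 genes, with Benjamini-Hochberg adjustment over all of them and a threshold of 0.05. The SE is the log2 fold change divided by the square root of F. Ratios used an offset of 0.5 on counts and exact permutation over samples. Every pair of libraries in a group differed by more than counting noise (lowest chi-square over its degrees of freedom 3.73).

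The members and lists were chosen with earlier results of these data known. Named were the members, Sirt6, the genes of the 6 pairs, up to 4 called genes per list and direction whose higher group reached 5 CPM, and the 3 genes nearest in pattern to Bnip3 and to Ddit4; other genes named with values were chosen after their values were seen. Alternatives were DESeq2 1.42.0 size factors or total counts as scaling, no filter or a mean of at least 1 CPM, DESeq2 or limma-voom (limma 3.58.1) as the test, a replicate block and each library left out. Library sizes without Rn45s, Rmrp and Rpph1 and removal of the length and GC trend were added after the data were seen. Exon lengths were known for 99% of tested genes. They come from GENCODE M21 (GRCm38), which is not the authors' build.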

Additional observations from a re-analysis of the deposited data

How the results depend on the processing

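Of the 150 values of the 10 members under 15 alternatives, 148 kept their call and 2 lost it, both of Egln1 without a wild-type replicate. Over the members, 7 or 8 were called higher and 1 lower with each library left out. Over all genes tested, the same fits called 3580 to 4961 higher and 3352 to 4915 lower. Total counts in place of TMM moved the median of all genes tested from 0.01 to 0.13 (log2), so that 5114 genes were higher and 3101 lower, 62.3% higher against 50.1% with TMM. For the other list genes, 51 of 1806 values lost their call and 51 gained one. The further hypoxia-inducible genes called lower numbered 4 with total counts and 4 to 8 with single libraries left out. Lower mTORC1 genes numbered 8 with the replicate block, 3 with total counts, 8 once the trend on length and GC was taken out and 3 to 7 with single libraries left out. Higher VEGF genes numbered 1 when genes had to average 1 CPM and 2 to 4 with single libraries left out. The P4ha1/P4ha2 log2 ratio difference ran from -0.019 to 0.090 with single libraries left out. The cause was not tested. Same-numbered wild-type and knockout libraries deviated together at correlations of 0.21, -0.025 and 0.20 across genes. Wild-type replicate 1 against knockout replicate 3 gave -0.21, and wild-type replicate 3 against knockout replicate 1 gave -0.22. Replicate 2 did not correlate best with its own number. The labels give only a number, and it cannot be told if it marks a shared batch or pairing. The replicate block called 9352 genes against 8345. Intervals cover counting and replicate spread in these 6 libraries only, and genes with group means under 1 CPM, such as Adm and Kdr, are measured with few counts.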
